A study of Mus musculus with 661 samples.

Results

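The cells described here are single mouse bone cells sorted as osteoprogenitors (OPr) and compared between old and young animals after old cells with blood-like transcripts had been left out. The labels name 73 OPr, 44 young and 29 old, among 661 cells in the series, and the multipotent osteoprogenitors called mOPr were not included. Cells were selected on 1 measured value, the level of *Il1b*, which encodes interleukin-1 beta. A cell was dropped when *Il1b* reached 1000 CPM (counts per 1000000 counts of nuclear genes), which removed 8 old cells and 0 young cells. The comparison therefore holds 65 cells, 21 old and 44 young.

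The *Il1b* values that chose the cells left a wide gap around the threshold. The lowest dropped cell had 1229 CPM and the highest dropped cell 29522.5 CPM. The highest kept cell, an old one with 81239 nuclear counts, had 61.5 CPM from 5 counts, and the highest young cell had 12.6 CPM. Because these values set the selection, the remaining difference in *Il1b* between the ages, 0.38 CPM in young and 2.12 CPM in old kept cells, is given as a description only.

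The study examined how the stroma of bone and marrow differs between young and old mice. Each cell was sorted into a well of its own, and its RNA was read with a full-length protocol derived from Smart-Seq2, without molecular identifiers. The mice were C57BL/6 wild-type animals of both sexes, about 2 months old in the young group and about 24 months old in the old group. OPr came from collagenase digests of crushed, washed bones and were gated as negative for Ter119, CD45, CD31, Sca-1, PDGFRα and LepR and positive for CD51. The labels name no mouse for any cell, so each age is 1 sample, no replicate check was possible, and no test between the ages was made.

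Osteoprogenitors line the inner bone surface, the endosteum, and give rise to osteoblasts, which deposit a matrix rich in type I collagen and mineralize it. Skeletal progenitors can also make cartilage matrix, which is built on type II collagen and aggrecan and driven by the transcription factor SOX9. Stromal cells of the central marrow that carry the leptin receptor (MSC-L) are known instead for CXCL12 and stem cell factor, which hold and sustain blood stem cells, and for an adipocyte-like gene program.

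The nuclear counts of the 44 young cells ran from 79352 to 1261596 with a median of 686077, and those of the 21 old cells from 57517 to 1488549 with a median of 775926. Fewer than 100000 counts were found in 1 young and 2 old cells. Young cells had a median of 6009 detected genes and old cells 6296, and the ranges overlapped. The mitochondrial share had a median of 1.48% in young and 1.23% in old cells, and its highest value was 12.9% and 13.1%. By depth and mitochondrial share the ages were thus close, with wide spread inside each.

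Sex could not be balanced between the ages from the labels. Transcripts of the Y-linked genes *Ddx3y*, *Eif2s3y*, *Kdm5d* and *Uty*, a set chosen after their values were seen, reached 10 CPM together in 37 of 44 young and 19 of 21 old cells. *Xist*, the RNA that silences 1 X chromosome in females, reached it in 1 young and 2 old cells. Most kept cells of both ages therefore carried Y-linked transcripts, and 1 cell of each age carried both kinds.

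The dropped cells were checked against a list of 18 genes of blood cells. From 10 CPM upward a marker is called carried by a cell. The 8 dropped cells carried between 14 and 18 of the 18 markers, while no kept young cell carried more than 4 and no kept old cell more than 5. Summed over the list, the level was 659 CPM in young and 311 CPM in old kept cells. The most abundant marker was *Lsp1*, an actin-binding protein, at 375 CPM in young cells, and *Arhgdib*, a gene abundant in leukocytes, at 109 CPM in old cells. *Cd52* had no count in young and *Fcer1g* none in old kept cells. For the 7 blood genes with enough counts to be compared the median log2 ratio was -1.12 after the cells were dropped and 3.67 with all 29 old cells.

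Markers of other blood cells were near background in most of the kept cells. The 12 neutrophil markers summed to 5.73 CPM in young and 4.43 CPM in old cells, and the 10 lymphoid markers to 0.85 CPM and 25.0 CPM. *Ighm*, an immunoglobulin heavy chain, was the most abundant lymphoid marker in old cells. It was at 106 CPM over the old cells of M5, of which 1 carried a lymphoid marker. The 12 macrophage and osteoclast markers summed to 34.7 CPM in young and 31.1 CPM in old cells. *Acp5*, the tartrate-resistant acid phosphatase of osteoclasts, made 25.8 CPM of the latter. Its counts were in 1 cell, and over the 7 old cells of M5 it was at 111 CPM. Erythroid markers were higher in old cells. They summed to 5.52 CPM in young and 471 CPM in old cells, and 1 old cell carried all 8 of them. The hemoglobin gene *Hbb-bs* had no count in young cells and 128 CPM in old cells, at least 1253-fold higher against a floor of 3 counts over the young cells, with 81.5% of its old counts in 1 cell and reads that near-identical globin genes may share.

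The deposited clusters of the study gave each cell an identity, with M1 and M2 named MSC-L-like, M3 to M5 OPr-like and M15 MSC-S-like, the last after a Sca-1 positive stroma of the endosteum. The authors derived the clusters from these same counts, so levels inside a cluster are described and not tested. Young OPr lay mostly in M3 and M4, with 22 of 44 cells (exact Clopper-Pearson 95% interval 34.6 to 65.4%), and in M5, with 14 (31.8%, 18.6 to 47.6%). A further 5 young cells (11.4%, 3.79 to 24.6%) lay in M15 and 3 (6.82%, 1.43 to 18.7%) in M1. Intervals here and for counts cover counting error only, since amplified reads without molecular identifiers are not independent molecules.

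Old OPr had another makeup. The MSC-L-like clusters M1 and M2 held 10 of 21 old cells (47.6%, 25.7 to 70.2%), of which 7 were in M1 and 3 in M2. The clusters M3 and M4 held 4 old cells (19.05%, 5.45 to 41.9%), only 1 of them in M3, against 15 young cells in M3. M5 held 7 old cells (33.3%, 14.6 to 56.97%), and M15 held 0 of 21 (0 to 16.1%). All 8 dropped cells were in M5 too, so these shares depend on the selection: with no cell dropped M5 held 15 of 29 old cells (51.7%, 32.5 to 70.6%) and M1 and M2 held 34.5%.

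The numbers in the cell titles fall into a lower and a higher range, called library ranges 1 and 2 here, which served as the only available split within each age. Range 1 held 7 old and 13 young kept cells and range 2 held 14 and 31. In range 1, M1 and M2 held 71.4% of the old and 23.1% of the young cells. In range 2 they held 35.7% of the old and none of the young cells. The MSC-L-like share was higher in old cells in both ranges. The clusters M3 and M4 held 0 of 7 old and 6 of 13 young cells in range 1. In range 2 they held 4 of 14 old and 16 of 31 young cells.

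The sort label was checked against lists of defining markers. Of 17 chondrocyte genes in the table, the median kept young cell carried 13 and the median old cell 2. Of 16 MSC-L genes the medians were 4 in young and 8 in old cells, and of 18 osteoblast genes 5.5 and 6. All 22 young cells of M3 and M4 carried 13 or more chondrocyte markers and at most 4 MSC-L markers. The 10 old cells of M1 and M2 carried from 11 to 16 MSC-L markers and at most 4 chondrocyte markers. Young cells of M15 carried a median of 10 chondrocyte markers, those of M5 a median of 6 and those of M1 a median of 2. Old cells outside M1 and M2 carried at most 8 MSC-L markers.

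The gate was negative for LepR and PDGFRα, yet their transcripts were present. *Lepr*, the leptin receptor gene, was at 2902 CPM in the old OPr of M1 and M2, between 349 and 8101 CPM per cell, and all 10 carried it. Cells of the same clusters that had been sorted as LepR-positive MSC-L had 3251 CPM in young and 3309.9 CPM in old mice. *Pdgfra*, the gene of PDGFRα, was at 427 CPM in those old OPr and at 715 CPM in old sorted MSC-L. The sort placed these cells as negative for both surface proteins. The paper states that surface staining was recorded for each sorted cell, and those records were not used here.

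**Figure D1:**
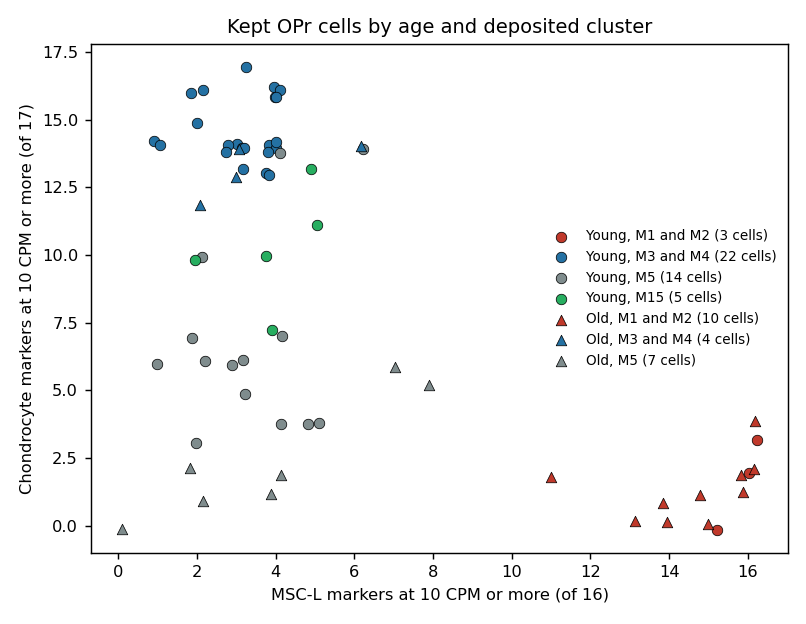
Each point is 1 of the 65 kept OPr, placed by how many of 16 MSC-L markers (horizontal) and 17 chondrocyte markers (vertical) reached 10 CPM in it, with a small shift so that equal values can be seen apart. The 22 young cells of M3 and M4 sit at 13 or more chondrocyte markers, and the 13 cells of M1 and M2 sit at 11 or more MSC-L markers.

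Genes were compared by the log2 ratio of summed counts, old over young, as CPM with 1 CPM added. A gene was tested when it had at least 100 counts in at least 5 kept cells, which 12980 genes did. It was called past the fold when it differed at least 2-fold over all kept cells and at least 2-fold the same way in each library range. By this rule 1328 genes (10.2%) were higher and 1290 (9.94%) lower in old OPr. With the fold over the pooled cells alone, 3424 (26.4%) were higher and 2388 (18.4%) lower. The median log2 ratio of all tested genes was 0.22, with -0.21 in range 1 and 0.31 in range 2. With 1 sample an age, none of these counts carries an error from replicate mice.

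The clusters with the highest levels were counted for the higher and the lower genes. Range 1 held 0 old cells of M3 and M4, so a gene high only in those old cells could not be called higher. The shares over all tested genes carry no such limit, so the rule itself sets part of the difference between them. Among the 1328 higher genes, the highest level among old cells was in M1 and M2 for 815 (61.4%), in M5 for 381 (28.7%) and in M3 and M4 for 132 (9.94%), where all tested genes gave 41.3%, 35.8% and 22.8%. Among the 1290 lower genes, the highest level among young cells was in M3 and M4 for 440 (34.1%), in M5 for 330 (25.6%), in M15 for 328 (25.4%) and in M1 for 192 (14.9%), where all tested genes gave 25.3%, 25.03%, 22.6% and 27.1%.

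A comparison over the OPr-like clusters alone asks how old and young OPr differ when cells of M1, M2 and M15 are set aside. It used 11 old and 36 young cells of M3 to M5, where 11265 genes were tested with the fold over pooled cells. In it 2786 (24.7%) were higher and 2985 (26.5%) lower, around a median log2 ratio of 0.07. Of the 1328 genes that were higher over all kept cells, 1004 could be tested there, 659 were at least 2-fold higher and 82 at least 2-fold lower. Of the 1290 lower genes, 1125 could be tested, 926 were at least 2-fold lower and 1 at least 2-fold higher. The cells of both comparisons overlap, so these shares are no independent repeat. The mix of clusters inside M3 to M5 also differed, with 15 of 36 young but 1 of 11 old cells in M3, 7 and 3 in M4, and 14 and 7 in M5, and this mix cannot be told apart from age in values summed over them.

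The MSC-L list held a block of higher genes. Of its 16 members, 12 were past the fold higher and 0 lower, with a median log2 ratio of 1.87 against 0.22 over all tested genes. *Cxcl12*, the chemokine that retains blood stem cells, ran from 0 to 53437 CPM with a median of 19.9 in young cells and from 1.45 to 64615 CPM with a median of 452 in old cells. The high cells were the 3 young cells of M1 and the 10 old cells of M1 and M2, all at 6985.7 CPM or more, and no other kept cell passed 543 CPM, so the ages overlapped. Summed, *Cxcl12* was at 4525 CPM in young and 26290.1 CPM in old cells, a log2 ratio of 2.54.

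Inside the MSC-L-like clusters the same gene did not differ in this way. *Cxcl12* was at 43317 CPM (95% interval 43083 to 43551) in the 3 young and 43821 CPM (43689 to 43953) in the 10 old OPr of M1 and M2. In cells of those clusters sorted as MSC-L it was at 49800.5 CPM in young and 40495.9 CPM in old mice. In M3 and M4 it was at 19.4 CPM in young and 20.8 CPM in old OPr.

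Other genes of the list followed the same layout. *Kitl*, which encodes stem cell factor, was at 156 CPM in young and 608 CPM in old cells, and inside M1 and M2 at 1500.01 CPM in 3 young and 1013 CPM in 10 old cells. *Hp*, the hemoglobin scavenger haptoglobin, was at 566 and 3636 CPM over all kept cells and at 5419.8 (young) and 5808 CPM (old) inside M1 and M2. *Adipoq*, the fat cell hormone adiponectin, was at 179 and 695 CPM. Restricted to M1 and M2 the list's median log2 ratio was -0.57, in M3 and M4 it was -0.04 over the same 16 genes, and over M3 to M5 it was 0.13 with 3 of 11 tested members higher and 4 lower. Without the top cell of each age the log2 ratios of *Kitl*, *Hp* and *Adipoq* went from 1.95, 2.68 and 1.95 to 3.24, 3.41 and 2.95. The MSC-L block was thus present over all kept cells and not inside the OPr-like clusters.

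Lists that overlap with MSC-L function had higher medians as well. Among 16 tested blood-supporting factors 8 were higher and 2 lower (median 1.57), among 14 adipogenic genes 6 were higher and 0 lower (1.53), and among 12 complement genes 8 were higher and 0 lower (1.83). Of all tested genes 10.2% were higher and 9.94% lower. The first 2 lists share higher genes with the MSC-L list, namely *Il7*, *Cxcl12* and *Kitl* in the first and *Lepr*, *Adipoq* and *Lpl* in the second. These genes are thus counted again. *Csf1*, the macrophage growth factor, was at 99.1 CPM in young and 796 CPM in old cells, with 1318 CPM in old M1 and M2, 27.1 CPM in old M3 and M4 together and 7.26 CPM in old M5. *Bmp4*, a bone morphogenetic protein, was at 27.9 and 375 CPM. Without the top cell of each age the log2 ratios of *Csf1* and *Bmp4* went from 2.99 and 3.70 to 4.31 and 4.38. Over M3 to M5 the medians of the 3 lists were -0.55, -0.10 and -0.08, so their direction over all kept cells was not seen in these pooled cells. Within them the medians varied, at -1.14, 0.99 and -1.44 in M5 and at -0.61, 0.71 and 0.17 in M4 alone. In M5 without cells of either age with at least 5 markers of another lineage, they were 2.86 (4 genes), -0.28 and -1.05.

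The antigen presentation list differed from these in that it was also higher in the OPr-like clusters. Over all kept cells 11 of 13 tested members were higher and 0 lower, with a median log2 ratio of 1.97. *H2-D1*, an MHC class I heavy chain, ran from 2.35 to 11519 CPM with a median of 256 in young cells and from 5.80 to 10827 CPM with a median of 2722 in old cells. The highest cells were again those of M1 and M2 at both ages, and the ranges overlapped. Summed, *H2-D1* was at 1364 CPM (1351 to 1377) in young and 4359 CPM (4327 to 4392) in old cells, a log2 ratio of 1.68. Some of its reads may be shared with other *H2* genes of near-identical sequence.

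By cluster, *H2-D1* was lower in old than in young cells of M1 and M2, at 6639.9 against 9222 CPM, the latter from 3 cells. It was higher in old cells of M3 and M4, at 435 against 209 CPM, where 64.2% of the old counts came from 1 of 4 cells. In M5 the 14 young cells had 589.6 CPM and the 7 old cells 1316 CPM, with 51.2% of the old counts in 1 of 7 cells. *B2m*, the light chain that every class I molecule needs, was at 256 against 98.0 CPM in M3 and M4 and at 1827 against 2245 CPM in M1 and M2. Over M3 to M5, 8 of 12 tested members of the list were higher and 0 lower (median 1.28), beside 24.7% higher and 26.5% lower among all genes tested there. In M5 alone 4 of 8 were higher and 0 lower (1.04), beside 32.9% and 28.7%. The list's median was smaller in M3 and M4, at 0.37 over 10 tested genes, against -0.48 over all genes tested there. In M1 and M2 it was -0.30.

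These values in M3 to M5 rest on few cells. In M4 alone 3 of 5 tested members were higher and 0 lower (median 1.40), beside 22.7% higher and 36.7% lower among all genes tested there, with *H2-D1* at 145.4 CPM in 7 young and 412 CPM in 3 old cells, whose values of 5.80, 95.1 and 949 CPM overlap with the 5.17 to 626 CPM of the young cells. In M5 without 3 old cells that carried markers of another lineage, 2 of 6 tested members were higher and 1 lower, with a median of 0.91. Over all 4867 genes tested in those cells 28.7% were higher and 39.8% lower (median -0.27), so the share of higher members was close to that of all genes.

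The subunits and transporters that feed class I molecules were part of this set. *Psmb8* and *Psmb9*, which replace catalytic subunits of the proteasome, had log2 ratios of 2.18 and 2.93, and *H2-T23*, a non-classical class I chain, had 3.19. Without the top cell of each age the values of *Psmb8* and *Psmb9* were 3.81 and 3.93. *Tap1*, a peptide transporter, and *Nlrc5*, the activator of class I transcription, were also past the fold. *H2-Ab1*, an MHC class II chain, was at 8.69 CPM in young and 42.0 CPM in old cells, while *Cd74*, *H2-Aa*, *H2-Eb1* and *Ciita* had too few counts to be tested.

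Chemokines could be tested for 5 of 20 list members, and 4 were past the fold higher. Besides *Cxcl12* these were *Cxcl14*, *Cx3cl1* and *Cxcl1*. *Cxcl14*, a chemokine of stroma, ran from 0 to 2087 CPM (median 1.40) in young and from 0 to 9903 CPM (median 349) in old cells. *Cxcl1*, which attracts neutrophils, was at 0.55 CPM in young and 781 CPM in old cells, but only 5 of 21 old cells carried it and 79.3% of its counts were in 1 cell of M5, so that its log2 ratio of 8.98 was 7.24 without the top cells. *Cx3cl1*, a membrane-bound chemokine, was at 37.4 and 128 CPM and had a log2 ratio of -2.85 over M3 to M5.

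Some genes of the IL-1 and IL-6 family lists were past the fold. *Lifr*, the receptor of leukemia inhibitory factor, ran from 0 to 1411 CPM (median 74.3) in young and from 0 to 21283 CPM (median 411) in old cells. A single old cell of M2 held 52.02% of the old counts, and without the top cell of each age the log2 ratio went from 2.96 to 2.09. *Il1rn*, the interleukin-1 receptor antagonist, was carried by 1 of 44 young cells and 7 of 21 old cells, at 59.6 and 363 CPM, and its log2 ratio of 2.59 was 7.59 without the top cells, since 1 young cell held 99.2% of the young counts. *Casp1*, the protease that matures interleukin-1 beta, had no count in young and 890 counts in old cells, all in M1 and M2 and 55.96% in 1 cell, at least 543-fold higher against 3 counts over the young cells. Over the IL-1 family list 2 of 10 tested genes were higher and 0 lower (median 0.90), and over the IL-6 family list 2 of 11 were higher and 1 lower (1.00). Of all tested genes 10.2% were higher and 9.94% lower. The IL-6 family median was -1.24 in range 1, 1.36 in range 2 and -0.28 in M5, so its direction depended on the cells compared.

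**Figure D2:**
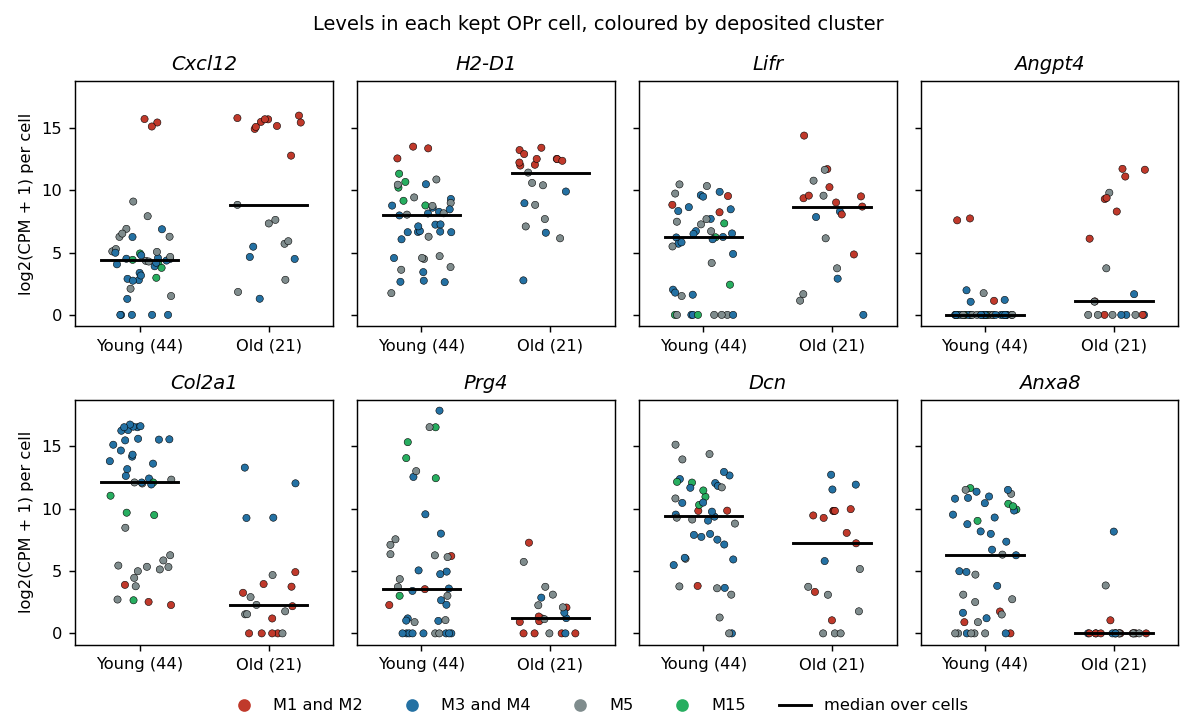
Each point is the log2(CPM + 1) level of 1 gene in 1 kept OPr, 44 young and 21 old, coloured by deposited cluster, with a line at the median of the age. The highest *Cxcl12* and *H2-D1* levels lie in cells of M1 and M2, and high *Col2a1* in cells of M3 and M4, where the 4 old cells sit at 609.5 to 10034 CPM.

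The 12 largest increases, taken from 601 genes that met rules on counts, detection and single cells, lay mostly in the MSC-L-like cells. For 10 of the 12 the highest old level was in M1 and M2, and for *Phex* and *Megf10* it was in M5. *Angpt4*, a ligand of the endothelial receptor TIE2 (chromosome 2, 151911210 to 151945337, GRCm38), ran from 0 to 212 CPM in young and from 0 to 3349 CPM in old cells with medians of 0 and 1.11. The high cells were 7 of the 10 old cells of M1 and M2 and 1 old cell of M5 at 887 CPM, and 2 of 3 young cells of M1 had 190.8 and 211.7 CPM. Summed, it was at 15.3 CPM (14.0 to 16.8) in young and 709.7 CPM (697 to 723) in old cells, a log2 ratio of 5.44.

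*Angpt4* was also higher inside the MSC-L-like clusters, at 146 CPM in the 3 young and 1135 CPM in the 10 old OPr. In the same clusters cells sorted as MSC-L had 124 CPM in young and 349 CPM in old mice. *Snhg11*, a host gene of small nucleolar RNA, was at 0.89 CPM in young and 99.7 CPM in old OPr (log2 ratio 5.74), and sorted MSC-L had 11.5 CPM in young and 346 CPM in old mice. For both genes the old level was thus the higher one in sorted MSC-L as well.

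*Lama1* did not share this. It encodes a laminin chain of basement membranes (chromosome 17, 67697259 to 67822647) and had 3 counts over the young and 1518 over the old OPr, a log2 ratio without pseudocount of 9.86 with an exact conditional binomial interval of 8.31 to 12.13. Sorted MSC-L had it at 69.01 CPM in young and 49.8 CPM in old mice. Only 3 young OPr lay in M1, so the level in young MSC-L-like OPr rests on few cells.

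*Rgs16*, a regulator of G protein signaling, was the 1 gene of the 12 whose direction differed between alternatives. It was at 9.96 CPM in young and 213 CPM in old OPr (4.29), with 355 CPM in old M1 and M2, yet sorted MSC-L had 27.4 CPM in young and 18.1 CPM in old mice. Over M3 to M5 its log2 ratio was -3.59. Other increases were *Sult1a1*, a sulfotransferase (5.05), *Rftn1*, a lipid raft protein (4.74), *Parp10*, a mono-ADP-ribosyltransferase (4.72), *Xdh*, the enzyme that makes urate (4.60), *Mgmt*, a DNA repair protein (4.55), *Phex*, a peptidase of osteocytes that limits phosphate loss (4.35), and *Megf10*, a receptor for cell engulfment (4.21). Without the top cells *Xdh* was at 6.49 and *Megf10* at 5.55, as 95.3% and 87.3% of their young counts were in 1 cell.

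The largest block of lower genes was the chondrocyte list. Of 16 tested members 15 were past the fold lower and 0 higher, with a median log2 ratio of -3.20. Over these 16 genes the median was -9.97 in range 1 and -2.82 in range 2. In range 1, M3 and M4 held 0 of 7 old but 6 of 13 young cells. The same direction in both ranges is thus no repeat of a decrease inside a cluster. *Col2a1*, the type II collagen gene (chromosome 15, 97975602 to 98004695), ran from 3.84 to 109830 CPM with a median of 4395 in young cells and from 0 to 10034 CPM with a median of 3.87 in old cells. The highest cells were the young cells of M3 and M4, and most old cells lay at the low end of the young range. Summed, it was at 23589 CPM (23534 to 23645) in young and 678 CPM (665 to 691) in old cells, a log2 ratio of -5.12, or -6.83 without the top cell of each age.

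The chondrocyte genes differed from each other in the OPr-like clusters. In M3 and M4 *Col2a1* was at 43676 CPM in young and 4004 CPM in old cells, and 73.9% of the old counts were in 1 of 4 cells. *Acan*, which encodes the proteoglycan aggrecan, was there at 4855 CPM in young and 2019.7 CPM in old cells. *Comp*, a cartilage glycoprotein that binds collagen, was at 11639 and 11087 CPM, and *Chad*, the cell-binding protein chondroadherin, was higher in old cells at 34082 against 17615 CPM. Only 4 old cells are behind these values.

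These sums over M3 and M4 set 15 young cells of M3 and 7 of M4 against 1 old cell of M3 and 3 of M4. Summed over the chondrocyte list, young M3 had 150575 CPM and young M4 54029.2 CPM, so the young clusters differ, and old M4 had 67965.9 CPM. In M4 alone, a comparison chosen after seeing the data, *Col2a1* was at 9445.2 CPM in 7 young cells (3929.6 to 18483 CPM per cell) and 5307.6 CPM in 3 old cells (609.5 to 10034 CPM). *Acan* was there at 2110.3 and 1624 CPM and *Chad* at 18154 and 35721 CPM, with overlapping cells of both ages. The list's median in M4 was -0.36, with 3 of 14 tested genes lower and 0 higher, close to the median of -0.33 over all 4378 genes tested there, of which 36.7% were lower and 22.7% higher. The 1 old cell of M3 had *Col2a1* at 620 CPM, *Col9a1* at 133 CPM and *Col11a1* at 393 CPM. Young M3 had 62677, 5493 and 5526 CPM. In that old cell *Chad* (29830.5 against 17315.5 CPM) and *Lect1* (11444 against 10791 CPM) were higher than in young M3. The decrease of the list summed over M3 and M4 cannot be told apart from the smaller share of M3 in old cells.

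Over M3 to M5, with the same difference in mix, the median of the chondrocyte list was -2.20, with 14 of 16 genes lower and 0 higher. Cartilage matrix proteins with lower values included *Matn3* (matrilin 3), which ran from 0 to 5799.8 CPM with a median of 26.8 in young and from 0 to 169.9 CPM with a median of 0 in old cells. *Sox9*, the transcription factor that drives cartilage genes, was at 895 and 133 CPM (-2.75). Without the top cells the log2 ratios of *Matn3* and *Sox9* went from -6.22 and -2.75 to -7.19 and -3.61. *Col10a1*, a collagen of hypertrophic cartilage, had 9511 counts in young and 1 count in old cells, a log2 ratio without pseudocount of -12.34 with an interval of -17.65 to -9.86. In 9 of 44 young cells *Col10a1* reached 10 CPM, against 0 of 21 old cells. Its level was 536 CPM in young M3 and 0.72 CPM in young M4, and M3 held only 1 old cell.

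Some genes of other matrix lists were lower as well. Of 12 tested small leucine-rich proteoglycans, which bind and space collagen fibrils, 5 were lower and 0 higher (median -1.24). In M3 and M4 the list's median had the other sign, at 0.63 over 10 tested genes. In M4 alone it was 0.41, with 2 of 9 higher and 1 lower. *Dcn*, which encodes decorin, ran from 0 to 35876 CPM with a median of 696 in young and from 0 to 6753 CPM with a median of 149 in old cells. The highest young cells were in M5, the ages overlapped, and the summed log2 ratio was -2.02. In M3 and M4 *Dcn* was at 1896 CPM in young and 3045 CPM in old cells, in M4 alone at 4622 and 4198 CPM, and in M5 it was at 9378 CPM in young and 2.42 CPM in old cells.

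Of 19 tested fibrillar and network collagens, 11 were lower and 3 higher, with a median of -1.79 that was -2.31 over M3 to M5. *Col1a1*, the main collagen of bone, was at 1704 CPM in young and 184 CPM in old cells (-3.21). It was found mostly in M5 of young mice, at 6601 CPM, against 409 CPM in old M5, and was at 5.34 CPM in young and 1.11 CPM in old cells of M3 and M4. *Col4a1*, *Col5a3* and *Col8a1* were the 3 higher ones. Among 20 collagen-processing genes 4 were lower and 0 higher (median -0.34), among them *Plod2*, which hydroxylates collagen lysines, at 538 and 139 CPM.

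Bone-forming genes did not move as 1 group. Of 16 tested osteoblast genes 3 were higher and 4 lower (median -0.37), and of 14 mineralization genes 2 were higher and 4 lower (median -0.67). *Spp1*, the mineral-binding protein osteopontin, was higher at 1049 against 2776 CPM, with 4322 CPM in old M1 and M2, and its log2 ratio over M3 to M5 was -0.85. *Bglap*, the osteoblast hormone osteocalcin, was lower at 143 against 39.8 CPM, and *Smpd3*, a sphingomyelinase needed for mineralization, at 733 against 53.5 CPM. In old cells 94.8% of the *Bglap* counts and 99.8% of the *Smpd3* counts were in 1 cell, and without the top cells their log2 ratios went from -1.82 and -3.75 to -4.88 and -9.07. *Runx2*, which commits cells to the osteoblast fate, was at 202 and 394 CPM and was not past the fold. Over M3 to M5 the osteoblast median was -1.18.

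The 12 largest decreases were found in 3 young groups, with the highest young level in M3 and M4 for 7, in M15 for 3 and in M5 for 2. *Prg4*, the lubricant of joint surfaces (chromosome 1, 150449412 to 150466165), ran from 0 to 237837 CPM with a median of 10.9 in young and from 0 to 154 CPM with a median of 1.33 in old cells. A few young cells of M15, M5 and M3 and M4 were very high, and 44.9% of its young counts were in 1 cell. Summed, it was at 12069.8 CPM in young and 10.4 CPM in old cells, a log2 ratio of -10.05, or -11.22 without the top cells. Since M15 held no old cell, its part in this difference cannot be told apart from age.

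Decreases were also seen for genes that many young cells carried. *Anxa8*, a membrane-binding annexin, reached 10 CPM in 27 of 44 young and 2 of 21 old cells, at 752 and 13.9 CPM (-5.66, or -8.75 without the top cells). In M3 and M4 it was at 756 CPM in young and 79.4 CPM in old cells, all of the latter in 1 of 4 cells, which was the cell of M3. In M4 alone young cells had 72.3 CPM and old cells no count. *Wisp1*, a matricellular target of Wnt signaling, reached 10 CPM in 18 young and 0 old cells, and *Car12*, a carbonic anhydrase, in 17 young and 0 old cells. *Car12* was at 403 CPM in young M3 and at 0 CPM in M4 of both ages, and only 1 old cell lay in M3. Its decrease cannot be told apart from the smaller share of M3 in old cells. Old cells had 2 counts of *Wisp1* against 2523 in young cells, a log2 ratio of -9.43 without pseudocount with an interval of -12.47 to -7.57.

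Several of the 12 were nearly absent from old cells. *Fam180a* and *Nrk*, a kinase, had 1 count each over the 21 old cells, against 4938 and 1617 counts over the young cells. Their log2 ratios without pseudocount were -11.40 (interval -16.70 to -8.92) and -9.79 (-15.09 to -7.31). *Mest*, an imprinted gene, had 1 count against 1490 counts (-9.67, -14.97 to -7.19), and *Creb5*, a transcription factor, 3 against 1639 counts (-8.22, -10.50 to -6.67). The gene listed as RP23-63A19.3 had 1933 young counts and no old count, at least 352-fold lower against 3 counts over the old cells. It was at 193 CPM in young M3 and 0.18 CPM in young M4, and M3 held only 1 old cell. *Enc1*, an actin-binding protein, and *Zdbf2*, another imprinted gene, had 4 and 5 old counts.

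Proteases gave mixed directions, while the few tested tendon-type genes were mostly lower. *Mmp3*, stromelysin, had 0 old counts and 3614 young counts, at least 658-fold lower against 3 counts over the old cells, while *Mmp13*, collagenase 3, was higher at 851 against 4.30 CPM with 86.7% of the old counts in 1 cell (log2 ratio 7.33, or 6.50 without the top cells). Over the list of proteases and their inhibitors 6 of 20 were higher and 6 lower (median 0.32). Of 4 tested tendon and ligament genes 3 were lower and 0 higher, and *Fmod*, a fibril-binding proteoglycan counted there, was at 7527 CPM in young and 1451 CPM in old cells. In M3 and M4 the direction was the other one, with a list median of 0.48 against -3.14 over all kept cells. *Fmod* was there at 5559 CPM in young and 8279 CPM in old cells (7875 and 10212 CPM in M4 alone). In M4 alone, however, the list's median was -2.20 over 2 tested genes, with 1 lower and 0 higher. *Thbs4*, another member, was at 83.1 CPM in young M4, 2.06 CPM in old M4 and 569 CPM in the 1 old cell of M3. Of 5 tested Schwann cell genes 3 were lower (median -4.48, or -5.31 with genes at 0 set to their bounds). For 1 of the 3, *Mbp*, the direction turned with the scaling, from -1.99 for summed counts to 1.66 for the mean of CPM over cells and 4.37 with size factors, and *Sox10*, their defining transcription factor, had no old count and 93.5% of its young counts in 1 cell.

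Growth factor pathways gave mixed directions. In the list of 30 BMP and TGF-beta genes 6 were higher and 4 lower (median 0.22, equal to that of all tested genes). The higher ones included *Bmp4* and *Grem1*, and the lower ones *Bmp7* (52.9 to 0.44 CPM) and its antagonist *Nog* (22.9 to 1.56 CPM). *Igfbp4*, which binds insulin-like growth factors, was at 729 CPM in young and 5624 CPM in old cells (2.95, or 4.00 without the top cells), and *Igfbp6* at 179 and 0.25 CPM (-7.17, or -5.98). Wnt antagonists had 2 of 8 higher, *Sfrp1* and *Sfrp4*, and 1 lower, *Notum*. Of 22 tested OPr transcription factors 4 were higher, among them *Ebf1*, *Ebf2* and *Ebf3*, and 3 lower, *Sox9*, *Sox5* and *Prrx2*. Over M3 to M5 the log2 ratios of *Grem1* and *Ebf3* had the other sign, at -3.32 and -1.71, and in M5 that of *Sox5* was 0.28.

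Sterol and fatty acid synthesis was lower on balance, with 7 of 22 genes lower and 1 higher (median -0.80, -1.80 over M3 to M5 and 0.11 in M4 alone). *Sqle*, which makes squalene epoxide, was at 73.9 and 4.68 CPM (-3.72, or -4.99 without the top cells). Restricted to M1 and M2, with 3 young cells, the list's median was 4.05 when only genes with enough counts in those cells were used. Glycolysis and hypoxia genes had 5 of 20 lower and 0 higher (median -0.85), among them the glucose transporter *Slc2a1* at 118 and 22.6 CPM and the hexokinase *Hk2* at 140.4 and 33.8 CPM. Without the top cells these went from -2.34 and -2.02 to -3.57 and -3.22. The list's median was 0.47 in M5, with 6 of 16 higher and 3 lower, beside 32.9% and 28.7% of all genes tested there. It was 1.61 over the genes with enough counts in M1 and M2, and -1.44 in M4 alone, with 1 of 14 higher and 9 lower. In M5 the log2 ratios of *Hk2* and *Sqle* were 2.11 and 1.17.

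Some lists had few or no genes past the fold, beside 10.2% higher and 9.94% lower among all tested genes. Of 30 oxidative phosphorylation genes 0 were past it (median 0.21), of 29 cytosolic ribosomal protein genes 0 (median -0.05), of 20 lysosome genes 0 (median 0.46) and of 14 heat shock genes 0 (median 0.07). In the unfolded protein response list 2 of 32 were lower, *Manf* and *Kdelr3*, and 0 higher (median -0.42). With the pooled fold over M3 to M5, 17 of 32 were lower and 1 higher (median -1.14), beside 26.5% and 24.7% of all genes tested there. In M5 14 of 31 were lower and 2 higher (-0.83), beside 28.7% and 32.9%. In M4 alone 13 of 28 were lower and 3 higher (-0.97), beside 36.7% and 22.7%. Among 18 tested p53 and cell cycle arrest genes 3 were lower, among them *Gadd45a* and *Cdkn2b*, and 0 higher (median -0.44). The share of lower genes in this list was thus above that of all tested genes. *Gadd45a* had the other sign with no cell dropped (0.56) and in M5 (1.18). Of 21 immediate early genes, which respond to cell handling among other stimuli, 1 was lower, *Atf3*, and 0 higher (median -0.13). *Fos*, the most abundant of them, was at 8619.8 CPM in young and 10320.2 CPM in old cells. In M5 the log2 ratio of *Atf3* was 1.66. In M4 alone 14 of 17 immediate early genes were lower and 1 higher (median -2.32), beside 36.7% and 22.7% of all genes tested there. *Fos* was there at 21763 CPM in 7 young and 6681 CPM in 3 old cells. Several lists had medians of opposite sign in the ranges: in range 1 and range 2 they were -1.88 and 0.55 for immediate early, -1.47 and 0.85 for heat shock, -0.77 and 0.29 for ribosomal protein genes, -1.19 and 1.37 for proteases and inhibitors, -2.21 and 0.89 for Wnt antagonists and -0.51 and 0.24 for OPr transcription factors, beside -0.21 and 0.31 for all tested genes.

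**Figure D3:**
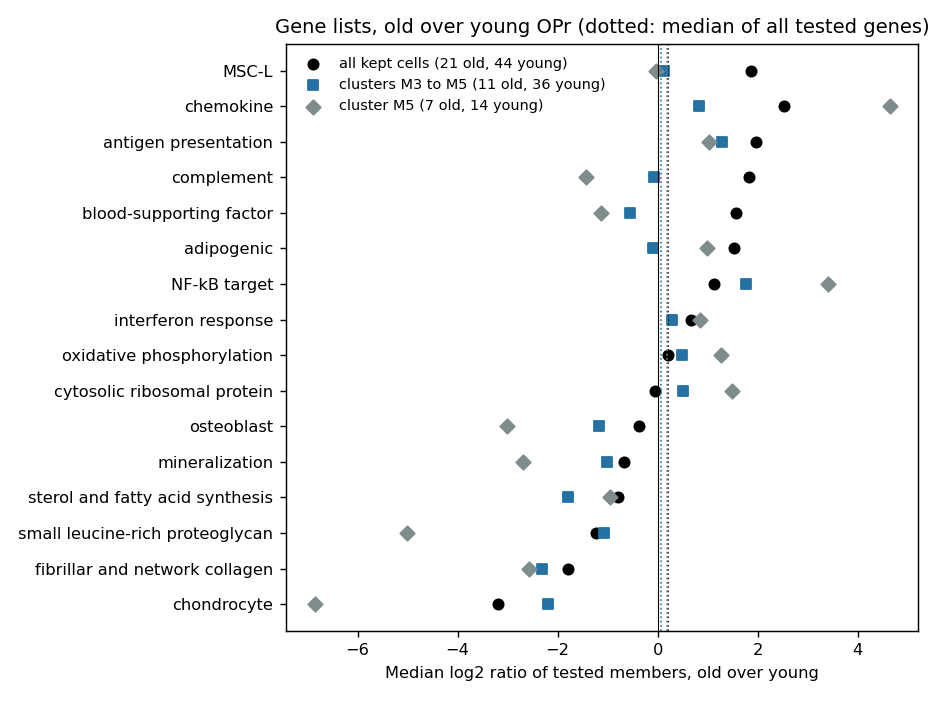
Points are medians of the log2 old over young ratio of the tested members of each list, over all kept cells, over clusters M3 to M5 and in M5, with dotted lines at the medians of all tested genes. The MSC-L list is at 1.87 over all kept cells and at -0.03 in M5, whereas the chondrocyte list is at -3.20, -2.20 and -6.86.

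The comparison in M5 asks what differs when both ages come from the same deposited cluster, and the cluster turned out mixed. The 14 young cells of M5 had a median of 352588 counts and 5.62% mitochondrial counts, and the 7 old cells 529778 counts and 2.83%. With the fold over pooled cells, 2009 of 6100 tested genes (32.9%) were higher and 1753 (28.7%) lower, around a median of 0.19. All values for old M5 rest on 7 cells.

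The cells of M5 differed from each other at both ages. Among the 14 young cells, 1 had *Mbp*, a myelin gene, at 9432 CPM, another *Prg4* at 95172 CPM with 14 chondrocyte markers, and a pair *Col1a1* at 53534 and 71880 CPM. Of the 7 old cells, 1 carried all 8 erythroid markers and *Mki67*, a marker of dividing cells, at 2412 CPM. Another carried 8 of 10 pericyte and smooth muscle markers with *Acta2*, smooth muscle actin, at 35338 CPM. A further one, the shallow cell with the highest kept *Il1b*, carried 6 of 10 endothelial and 5 blood markers, but 1 count is 12.3 CPM in it, and 5 of the 6 and 3 of the 5 rest on 1 count each. The cell with 57517 counts had *Mbp* at 16360.4 CPM and carried 4 neutrophil markers, of which 3 rest on 1 count (17.4 CPM) each. A pair of cells carried 9 and 10 of 18 osteoblast markers, the first with *Runx2* at 3259.9 CPM and a 13.1% mitochondrial share, the second with *Sfrp4*, a Wnt antagonist, at 22992.5 CPM and *Dmp1*, an osteocyte matrix protein, at 752 CPM. The second of this pair also carried 1 lymphoid marker. The last of the 7 had *Cxcl1* at 10768 CPM.

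Cells with markers of other lineages were found at both ages. Over all kept cells, 4 old and 0 young cells carried at least 6 markers of the erythroid, endothelial or pericyte and smooth muscle lists, a number chosen after the cells had been seen. Of these, 3 were in M5 and 1 was in M1, and the shallow cell of M5 is among them by 5 markers of 1 count each. The pericyte and smooth muscle markers summed to 809.9 CPM in young cells, led by *Cspg4*, and to 3539 CPM in old cells, led by *Acta2* with 99.3% of its counts in 1 cell. The endothelial markers summed to 10.1 and 15.5 CPM. With these 4 cells left out, 1234 genes were higher and 1558 lower over all kept cells.

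By other lists young cells stood out as well: 1 young cell of M5 carried 5 of 6 Schwann cell markers and another 5 of 6 tendon and ligament markers. With 5 markers as the limit and these lists included, also chosen after the cells had been seen, 4 old and 2 young cells were left out, and 1274 genes were higher and 1516 lower. In M5, where 12 young and 4 old cells then remain, 1246 of 3827 genes (32.6%) were higher and 1331 (34.8%) lower, around a median of -0.03. The antigen presentation median was there 1.11 (3 of 5 higher, 1 lower), that of NF-kB targets 2.53 (7 of 10 higher, 2 lower) and that of oxidative phosphorylation -0.35 (4 of 20 higher, 8 lower).

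Matrix genes gave the largest decreases in M5. *Dcn* was at 9378 CPM in young and 2.42 CPM in old cells of M5, and 11 of 14 young but 2 of 7 old cells reached 10 CPM. *Lum*, the related proteoglycan lumican, had 15426 counts in young and 1 count in old cells, a log2 ratio without pseudocount of -13.18 (interval -18.48 to -10.70). *Acan* and *Elmo1*, which aids cell migration and engulfment, also had 1 old count each, with ratios of -10.63 (-15.94 to -8.15) and -10.19 (-15.50 to -7.71). *Col11a2*, a cartilage collagen, was at 639 and 1.07 CPM. *Kdelr3*, a receptor that returns proteins to the endoplasmic reticulum, had no count in old cells, at least 379.9-fold lower against 3 counts over the old cells of M5.

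Across lists, 12 of 13 chondrocyte genes and 9 of 10 small leucine-rich proteoglycans were lower in M5 and 0 were higher, with medians of -6.86 and -5.02. The osteoblast list had 7 of 11 lower and 1 higher (-3.02). Higher genes in M5 included *Sbno2*, a corepressor that responds to interleukin-10, at 48.2 CPM in young and 1938 CPM in old cells (5.30). *Filip1l* (6.07), *Ccar1*, a regulator of cell division and apoptosis (5.90), the phosphatase subunit *Ppp2ca* (3.84), the splicing factor *Hnrnpm* (3.83) and the zinc-finger repressor *Zfp281* (3.83) were the other 5. Without the top cells of M5, *Filip1l* was at 7.06, *Ppp2ca* at 5.66, *Hnrnpm* at 4.84 and *Zfp281* at 7.37. Over all kept cells *Ppp2ca* had a log2 ratio of 0.13.

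NF-kB target genes varied with the cells compared. With the fold over pooled cells, 11 of 15 tested genes were higher and 2 lower in M5 (median 3.42), and 11 of 20 were higher and 2 lower over all kept cells (median 1.12), of which 4 and 1 also passed the fold in both ranges. Over all kept cells the median was -0.03 in range 1 and 2.05 in range 2, and in M4 alone it was -1.63, with 1 of 10 higher and 6 lower. *Nfkbia*, the inhibitor that NF-kB induces, ran from 0 to 1852 CPM (median 114) in young and from 0 to 3343 CPM (median 223) in old kept cells. In M5 it was at 362.5 CPM in 14 young and 1257 CPM in 7 old cells, and 55.4% of the old counts were in the cell with pericyte and smooth muscle markers. Without the 3 cells of M5 with such markers of another lineage, the list's median was 1.46, with 9 of 11 tested genes higher and 2 lower, beside a median of -0.27 over all genes.

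Interferon response genes had 5 of 21 tested members higher and 3 lower over all kept cells (median 0.67). *Gbp2*, an interferon-induced GTPase, was at 9.17 CPM in young and 184 CPM in old cells, with 58.6% of the old counts in 1 cell of M5. *Irf1*, a transcription factor of interferon responses, was at 151 and 887 CPM with 67.6% in 1 old cell, and its log2 ratio of 2.54 was 1.42 without the top cells, 0.15 in range 1 and 3.67 in range 2. *Usp18*, *Ifit3* and *Mx2* were lower. In M5 without the cells with markers of another lineage, 2 of 6 tested interferon genes were higher and 3 lower (median -0.28, against -0.27 over all genes). In M3 and M4 the list's median was -0.49. In M4 alone all 3 tested members were lower (median -3.27), beside 36.7% of all genes tested there.

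In M5 oxidative phosphorylation had 16 of 29 genes higher and 1 lower (median 1.28), and cytosolic ribosomal proteins 18 of 26 higher and 1 lower (median 1.49). Without the 3 cells with markers of another lineage, the oxidative phosphorylation median was -0.30, with 6 of 22 (27.3%) higher and 10 (45.5%) lower, close to the 28.7% and 39.8% of all genes tested in those cells. For ribosomal proteins it was 0.51, with 11 of 26 (42.3%) higher and 2 (7.69%) lower. Depth, mitochondrial share and such markers all differed between old and young M5, and their part in the lists' values was not tested beyond these recomputations. In M3 and M4 the oxidative phosphorylation median was -1.40. In M4 alone it was -1.41, with 2 of 20 higher and 11 lower, against -0.33 over all genes tested there. For ribosomal proteins the medians were -0.05 in M3 and M4 and 0.21 in M4 alone.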

How the data were processed

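The gene counts were deposited by the authors. Their processing notes name GSNAP (2015-09-29), HTSeq and the mouse genome GRCm38.p4, and the counting used no strand. The table has 46078 entries. 270 symbols that occur more than once were summed, which gave 45771 nuclear and 37 mitochondrial genes. 184 of 661 columns were read and 477 were not used.

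Levels are CPM (counts per 1000000 nuclear counts). Age ratios are log2 of summed CPM plus 1, old over young, with exact Poisson 95% intervals. A gene was tested with at least 100 counts in at least 5 kept cells, and was past the fold at 2-fold over pooled cells and in both ranges of library numbers. In M3 to M5, M4 and M5 only the pooled 2-fold was used. Named genes were the 12 largest each way (6 in M5) after rules on counts, detection and the share of counts in 1 cell. Single values of some genes are not reported here, though these genes count in the lists and totals.

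Members and 45 gene lists were chosen with earlier results of these data known. Alternatives covered scaling, pseudocount, filters, ranges, clusters, thinning and single cells. The functions were tested on simulated data. Coordinates are from the GENCODE annotation of GRCm38. Tables were handled with pandas 2.3.3 and numpy 2.4.6, intervals with scipy 1.17.1 and plots with matplotlib 3.10.9, under Python 3.11.15.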

Additional observations from a re-analysis of the deposited data

Results flagged for a closer look

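The 8 old cells left out of the comparison carried a strong blood cell signal. The 18 blood markers summed to 31474.2 CPM in them, above the 659 CPM in young kept cells and the 311 CPM in old kept cells. The most abundant of these 18 markers in the cells left out was *Srgn*, at 7227 CPM. The 12 neutrophil markers summed to 34166.5 CPM in the same cells, led by *S100a9* at 16117.9 CPM.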

How the results depend on the processing

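No paired analysis was possible because the numbers in the titles only name cells and no mouse is given for any of them. The alternatives restricted to M1 and M2, restricted to M3 and M4, restricted to M4, and without cells carrying markers of another lineage were chosen after seeing the data. Counts are genes past the fold (1328 higher and 1290 lower with the main settings), and other values are log2 ratios or list medians. For lists, the other sign is named only where the interval of the median over all kept cells excluded 0, except in M4 alone. Where values differ between settings, the cause was not tested.

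With the mean over cells of log2 levels, 675 genes were higher and 767 lower, the MSC-L median was 3.53 and the antigen presentation median 2.32, and 3 genes had the other sign: *Ly6a* 0.12, *Col22a1* 0.23 and *Socs3* -0.58. *Mbp*, at -1.99 with the main settings, had the other sign with the mean of CPM over cells (1.66) and with size factors (4.37), as had *Pecam1* (-1.67) with size factors (1.08). Thinned to 100000 counts per cell, 921 genes were higher and 579 lower. With 4-fold in place of 2-fold, 401 were higher and 532 lower, and in M5 1073 and 1085. With the pooled fold only, 3424 were higher and 2388 lower.

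In range 1 alone 2377 genes were higher and 2873 lower, the chondrocyte median was -10.12 and the antigen presentation median 1.54, and M1 and M2 held 71.4% of old and 23.1% of young cells, with 15.4% of young cells in M5. Of the range 1 cells 0 of 7 old but 6 of 13 young ones lay in M3 and M4. In range 2 alone 3480 were higher and 2110 lower, the MSC-L median was 5.21, and M1 and M2 held 0% of young cells.

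With no cell dropped, *Cd68* was at 2.66, *Pecam1* at 0.53, *Gadd45a* at 0.56 and *Mvd* at 0.97, each with the other sign. Without the top cell of each age for each gene 746 genes were higher and 1676 lower, and the MSC-L median was 2.74.

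Without M1 and M2, 463 genes were higher and 2242 lower. Of the old cells of range 1 only the 2 of M5 then remained. The MSC-L median had the other sign at -0.0563, as had complement at -0.11, blood-supporting factors at -0.13 and adipogenic genes at -0.0882. The chondrocyte median was -2.04 and the antigen presentation median 1.26. Genes with the other sign were *Rgs16* -3.33, *Spp1* -1.06, *Csf1* -0.13, *Cx3cl1* -3.42, *C2* -3.09, *Serpine2* -0.39, *Smad6* -2.57, *Lepr* -0.091, *Ebf3* -1.48, *Lpl* -3.28 and *Grem1* -3.14.

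In M3 to M5 with both ranges required, 492 genes were higher and 1993 lower. In range 1 this set 2 old cells, both of M5, against 8 young cells, of which 6 lay in M3 and M4. The MSC-L median was 0.13 and the antigen presentation median 1.28. The other sign was seen for complement at -0.0754, blood-supporting factors at -0.55, adipogenic genes at -0.10 and lysosome genes at -0.0151, and for *Rgs16* -3.59, *Spp1* -0.85, *Csf1* -0.26, *Cx3cl1* -2.85, *C2* -3.33, *Serpine2* -0.36, *Ebf3* -1.71, *Lpl* -3.36 and *Grem1* -3.32.

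In M5 with both ranges required, 601 genes were higher and 864 lower, against 2009 and 1753 with the pooled fold. Range 1 held only 2 old and 2 young cells of M5, and 1 of these old cells had 81239 counts. Requiring both ranges is therefore no sounder here than the pooled fold. With the pooled fold and without cells of either age carrying at least 5 markers of another lineage, 1246 were higher and 1331 lower in M5. The chondrocyte median was -6.86 and the antigen presentation median 1.04. The other sign was seen for MSC-L at -0.0310, complement at -1.44, blood-supporting factors at -1.14, glycolysis and hypoxia at 0.47 and lysosome at -0.61. It was also seen for *Cxcl12* -0.20, *Socs3* -0.28, *C1s1* -3.32, *Atf3* 1.66, *Gadd45a* 1.18, *Col6a3* 0.26, *Serpine2* -0.70, *Lepr* -1.80, *Sox5* 0.28, *Hk2* 2.11, *Sqle* 1.17, *Srxn1* 7.63 and *Lpl* -4.86.

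In M1 and M2 only, with 3 young cells and the genes with enough counts in those clusters, the other sign was seen for the medians of MSC-L (-0.57), chondrocyte (3.24), antigen presentation (-0.30), p53 and cell cycle arrest (2.10), collagen processing (0.74), blood-supporting factors (-0.11), adipogenic (-0.47), glycolysis and hypoxia (1.61) and sterol and fatty acid synthesis (4.05). In M3 and M4 only, with 4 old cells, it was seen for MSC-L (-0.0136), NF-kB targets (-0.27), the IL-1 family (-3.64) and small leucine-rich proteoglycans (0.63), with the chondrocyte median at -1.37 and antigen presentation at 0.37. Some of these medians hold fewer genes than those over all kept cells. The chondrocyte median in M1 and M2 rests on 4 genes, and over the 16 genes tested in all kept cells it was -0.43. The blood-supporting median there rests on 12 genes and was 0.0083 over 16, and the MSC-L median in M3 and M4 rests on 7 genes and was -0.0415 over 16.

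In M4 only, with 3 old and 7 young cells, the MSC-L median was 0.22, the chondrocyte median -0.36 and the antigen presentation median 1.40. The other sign was seen for NF-kB targets (-1.63), the IL-1 family (-6.41, 2 genes), collagen processing (0.12), small leucine-rich proteoglycans (0.41), blood-supporting factors (-0.61) and sterol and fatty acid synthesis (0.11). It was also seen for interferon response (-3.27), oxidative phosphorylation (-1.41), heat shock (-0.90), antioxidant (-0.61), Wnt antagonist (0.86), cytosolic ribosomal protein (0.21) and ubiquitous reference genes (0.0961). With 1 tested gene each, it was seen for proliferation (-1.84), MSC-S and fibroblast (-0.25) and Schwann cell genes (0.0445). Sums over M3 and M4 and over M3 to M5 hold a smaller share of M3 in old than in young cells, and this cannot be told apart from age.

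Each age is treated as 1 sample of few cells, because no mouse is named for any cell. Whether the 2 library ranges share mice is not given. Age cannot be told apart from sort day or digestion in these labels. Cluster membership was taken from the authors and comes from the same counts. Reads without molecular identifiers make single cells with strong amplification count more, and M15 and M3 held 0 and 1 old cells.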
